A study of Mus musculus with 10 samples.

Results

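Mouse mitochondria keep a small circular genome of their own, and its transcripts were followed here through 10 sequencing libraries of mouse blood RNA. The members are the rows of the deposited gene table whose symbol starts with mt-. They number 16 of 30984 genes. They comprise the 2 ribosomal RNAs (rRNAs), mt-Rnr1 and mt-Rnr2, the 13 protein-coding genes and 1 transfer RNA (tRNA), the proline tRNA mt-Tp. GENCODE release M21 annotates 37 genes on this genome, and the other 21 tRNAs were not analysed here.

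The libraries fall into 2 groups by their treatment label. The first, called burn, holds 6 libraries labelled burn wound healing, and the second, called NC, holds 4 libraries whose label adds the letters NC. The labels do not expand NC, and they give neither strain, sex nor age for either group. The manganese chloride named in the series title is in no sample label, so it is not known which group received it. Nothing in the labels says that the samples came from separate animals. The p-values thus set the group difference against the spread between samples only, and that spread may be technical. All 10 samples are labelled with whole blood as the tissue, lymphocyte as the cell line and monocytes as the cell type, and the title speaks of peripheral blood mononuclear cells.

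The mitochondrial genome is transcribed as long precursors that cover most of each strand. The tRNAs that stand between the other genes are cut out, which frees the rRNAs and messenger RNAs (mRNAs). The rRNAs form the mitochondrial ribosome, which translates the mRNAs into subunits of respiratory complexes I, III, IV and V. Among blood cells, platelets and nucleated white cells keep mitochondria, whereas mature red cells lose theirs.

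Library totals ran from 30677206 counts in NC 3 to 36379663 in burn 4. The 16 genes together took 4.53%, 5.85%, 4.85%, 4.24%, 5.08% and 4.97% of the counts in burn 1 to 6, and 9.28%, 5.96%, 6.71% and 3.68% in NC 1 to 4. NC libraries held both the highest and the lowest share. Wilson 95% intervals of the shares given below were at most 0.00842 percentage points to either side. They cover counting error only, so the spread between libraries sets the precision. No pair of libraries in a group agreed within sampling noise. Markers of red cells, platelets, neutrophils, monocytes and lymphocytes were present in every library, with haemoglobin genes at 8.33% to 12.4% of the counts in burn and 7.17% to 12.8% in NC. In bulk RNA, fewer cells of a type and less RNA per cell cannot be told apart.

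The sequence that bears most on how these rows can be read is a copy of part of the mitochondrial genome in nuclear DNA. On the GRCm38 (mm10) build, 7 pseudogenes that lie side by side on the minus strand of chromosome 1, at chr1:24611535-24616197, match stretches of it between bases 6390 and 11042. That span is 4653 bases long, of which 4136 aligned to an annotated pseudogene. Of those 7 copies, 5 were identical to their mitochondrial gene over every aligned base. The opening 60 bases of 3 members and of their copies are shown to let the copies be compared, taken from the GENCODE M21 transcripts. They are mt-Co2 at chrM:7013-7072 with Gm28661 at chr1:24615506-24615565, mt-Atp6 at chrM:7927-7986 with Gm10925 at chr1:24614592-24614651, and mt-Nd3 at chrM:9459-9518 with Gm28438 at chr1:24613060-24613119. The mitochondrial genes are on the plus strand and the copies on the minus strand, all are written 5′ to 3′, and capitals mark a base that differs.
mt-Co2: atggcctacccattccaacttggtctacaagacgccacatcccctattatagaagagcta
Gm28661: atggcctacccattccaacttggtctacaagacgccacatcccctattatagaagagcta
mt-Atp6: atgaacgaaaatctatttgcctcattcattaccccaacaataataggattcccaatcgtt
Gm10925: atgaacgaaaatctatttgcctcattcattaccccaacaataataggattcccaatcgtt
mt-Nd3: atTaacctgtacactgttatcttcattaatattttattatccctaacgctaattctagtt
Gm28438: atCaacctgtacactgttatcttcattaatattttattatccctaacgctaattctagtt

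The first and second pairs had no capital, so a read from these bases could come from either place. The third pair differed by the substitution T3C, counted from 1 at the first base of the gene with the base of mt-Nd3 first, which is chrM position 9461. It was the 1 mismatch in 345 aligned bases. The identical stretches were 681 bases of mt-Co2 (Gm28661), 678 of mt-Atp6 (Gm10925), 783 of mt-Co3 (Gm28437), 294 of mt-Nd4l (Gm10222) and 876 of the 1378 bases of mt-Nd4 (Gm28439). Of mt-Co1, bases 1063 to 1545 matched Gm29216 with 1 mismatch. The row of mt-Atp8 has no annotated copy of its own. It lies between the stretches that match Gm28661 and Gm10925, and 43 of its 204 bases aligned, to the copy of its neighbour. Thus 6 rows lay within the span, mt-Atp8 by position only, and 2, mt-Co1 and mt-Nd4, lay in it in part. How the counting treated reads that fit both places is not given in the sources used here.

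A further pair of sequences is shown for the members whose values are described one by one below. The proline tRNA at chrM:15356-15422 (minus strand, 67 bases) is the sole tRNA analysed here. The whole of mt-Nd4l at chrM:9877-10173 (plus strand) is 297 bases long, and its capitals mark the last bases, which fall outside the annotated copy Gm10222.
mt-Tp: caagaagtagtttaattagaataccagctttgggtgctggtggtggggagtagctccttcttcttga
mt-Nd4l: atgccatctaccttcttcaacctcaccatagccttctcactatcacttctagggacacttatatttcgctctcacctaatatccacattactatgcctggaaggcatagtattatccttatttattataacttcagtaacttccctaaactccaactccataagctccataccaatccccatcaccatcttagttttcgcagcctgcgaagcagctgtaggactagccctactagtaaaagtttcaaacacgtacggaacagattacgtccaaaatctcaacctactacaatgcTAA

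The search read annotated nuclear transcripts in the sense direction only and did not cover every chromosome. Within that scope it found no transcript of another gene in the table that matched mt-Rnr1, mt-Rnr2, mt-Nd1 or mt-Tp. The best matches of the other 4 were less close, at 96.7% identity over 510 bases for mt-Nd2, 92.3% over 1058 bases for mt-Nd5, 93.6% over 519 bases for mt-Nd6 and 74.9% over 878 bases for mt-Cytb.

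The rRNAs were the members that varied most between libraries. They had lower values in burn than in NC on average, but the groups overlapped and neither gene passed the test. Together they took 1.71%, 2.60%, 2.21%, 1.39%, 2.12% and 2.13% of all counts in burn 1 to 6, and 6.53%, 3.27%, 3.48% and 1.30% in NC 1 to 4. NC 1, 2 and 3 were above every burn library, and NC 4 was below all of them. The mean share was 2.03% ± 0.422 in burn (SD, n = 6) and 3.65% ± 2.16 in NC (SD, n = 4). The highest share was 1.87 times the lowest within burn and 5.02 times within NC. The log2 ratio of the geometric means, burn over NC, was -0.66, and it was -0.30 without NC 1 and -1.08 without NC 4.

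**Figure D1:**
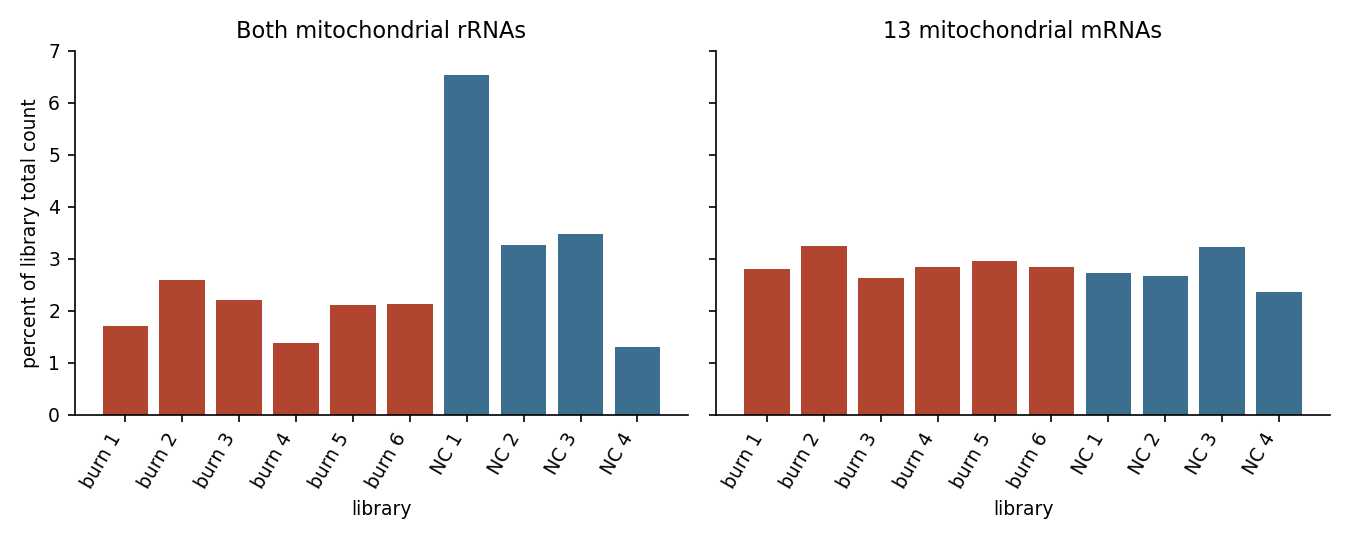
Percent of the library total count taken by both mitochondrial rRNAs (left) and by the 13 mitochondrial mRNAs (right), with 1 bar for each library, burn in red and NC in blue. The rRNA bars run from 1.30% in NC 4 to 6.53% in NC 1, while the mRNA bars stay between 2.37% and 3.24%.

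The RNA of the small ribosomal subunit, mt-Rnr1 (ENSMUSG00000064337, chrM:70-1024), had 4968, 7796, 6552, 4176, 6787 and 6519 CPM (counts scaled to the library total) in burn 1 to 6, and 22482, 10679.5, 11529.7 and 4199 CPM in NC 1 to 4. NC 4 lay inside the burn range and the other NC libraries above it. In edgeR's quasi-likelihood test, with TMM scaling, its log2 difference (burn minus NC) was -1.05 (SE 0.36, 95% interval -1.84 to -0.27), with an adjusted p of 0.393 over the 17268 genes tested. The RNA of the large subunit, mt-Rnr2 (ENSMUSG00000064339, chrM:1094-2675), had 12180.1, 18234, 15596, 9719, 14409.8 and 14787 CPM in burn 1 to 6, and 42864, 22033, 23262 and 8809 CPM in NC 1 to 4. Here NC 4 was the lowest of all libraries. The log2 difference was -0.83 (SE 0.35, 95% interval -1.59 to -0.074), and the adjusted p was 0.418. Both values depended on NC 1, at -0.59 for mt-Rnr1 and -0.42 for mt-Rnr2 without it. Without NC 4 they were -1.40 for mt-Rnr1 and -1.17 for mt-Rnr2. The adjusted p-values of that fit, 0.0526 for mt-Rnr1 and 0.0590 for mt-Rnr2, were the lowest over the alternatives, and the highest were 0.861 and 0.868.

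The proportion of large to small subunit RNA was higher in every burn library than in any NC library. Counts of mt-Rnr2 over mt-Rnr1 were 2.45, 2.34, 2.38, 2.33, 2.12 and 2.27 in burn 1 to 6, and 1.91, 2.06, 2.02 and 2.10 in NC 1 to 4. The lowest burn library, burn 5, lay just above the highest NC library, NC 4, and the groups did not overlap. The mean ratio was 2.31 ± 0.112 in burn (SD, n = 6) and 2.02 ± 0.0832 in NC (SD, n = 4), a log2 difference of 0.20 that stayed between 0.17 and 0.22 when any library was left out. Per base of gene length the ratio was 1.28 to 1.48 in burn and 1.15 to 1.27 in NC. This ratio was chosen after its values had been seen, so no test is given for it. Of all single genes, 2.32% had groups that did not overlap, and how often other ratios separated the groups was not examined.

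The 13 mRNAs took close to the same share of every library, and their sum was near equal in the groups. It was 2.81%, 3.24%, 2.63%, 2.85%, 2.96% and 2.84% of the counts in burn 1 to 6, and 2.73%, 2.68%, 3.22% and 2.37% in NC 1 to 4. Burn 2 and NC 3 were the highest and NC 4 the lowest. The mean was 2.89% ± 0.202 in burn (SD, n = 6) and 2.75% ± 0.352 in NC (SD, n = 4), and the highest of all libraries was 1.37 times the lowest. The log2 ratio of burn over NC was 0.075, and it was 0.0060 without NC 4 and 0.15 without NC 3. Without the 8 mRNAs that lie wholly or partly in the span of the copies it was 0.13.

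Set against the mRNAs, the rRNAs showed the same order of groups with the library total left out of account. Counts of rRNA over counts of mRNA were 0.610, 0.804, 0.841, 0.488, 0.717 and 0.751 in burn 1 to 6, and 2.39, 1.22, 1.08 and 0.548 in NC 1 to 4. Counts of rRNA exceeded those of mRNA in NC 1, 2 and 3 and in no burn library. NC 4 lay inside the burn range. On the log2 scale the ratio in burn minus that in NC was -0.73, with -0.38 without NC 1 and -1.09 without NC 4.

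None of the 16 genes passed the test of burn against NC. Of 16 members, all of which passed the filter on low counts, edgeR called 0 at an adjusted p under 0.05, where it called 0 of 17268 genes (0%). An unadjusted p under 0.05 was reached by 3 of 16, mt-Rnr1 and mt-Rnr2 with lower values in burn and mt-Nd4l with higher values, against 11.3% of all genes (7% with lower and 4.25% with higher values). DESeq2 called 0 of the 16, against 0.493% of the genes it tested. The groups did not overlap in CPM for 0 of 16 members, against 2.32% of all genes. The log2 difference was below 0 for 10 members and above 0 for 6, with a median of -0.097, while the median over all genes was 0.024 and 45.3% of them were below 0.

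**Figure D2:**
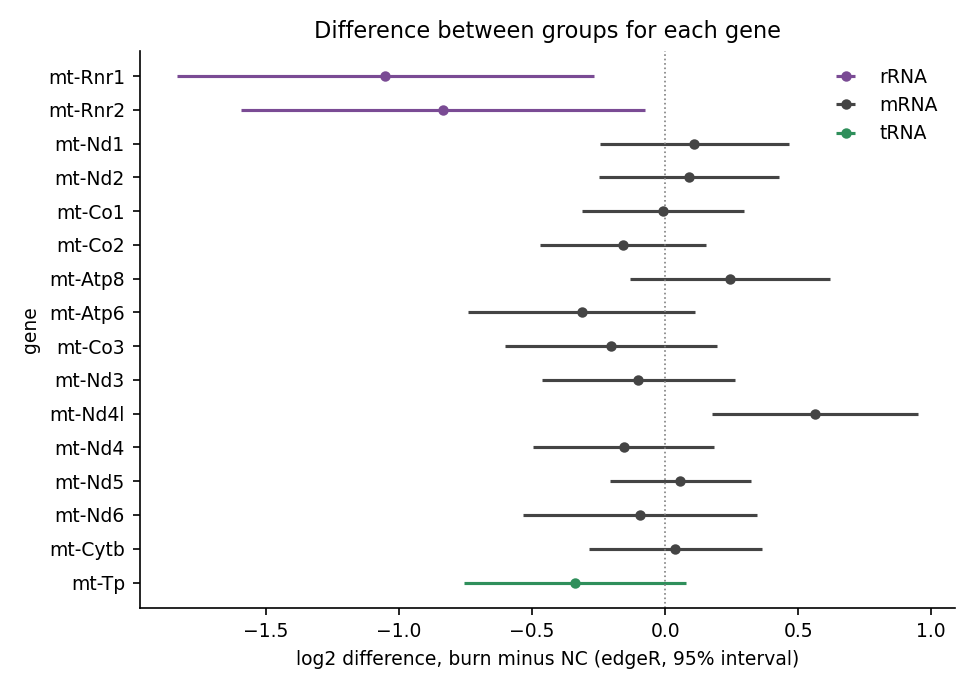
Log2 difference of burn minus NC for each of the 16 genes in edgeR, with bars for the 95% interval, in order along the genome and coloured by RNA type. Both rRNAs lie furthest to the left, at -1.05 and -0.83, mt-Nd4l lies furthest to the right at 0.56, and the intervals of the other 13 genes include 0.

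Among the 13 mRNAs the log2 differences ran from -0.31 for mt-Atp6 to 0.56 for mt-Nd4l, with 7 below 0, 6 above 0 and a median of -0.0080. NC libraries varied more than burn libraries for most members. The SD of log2 CPM was larger in NC than in burn for 13 of 16, and the exceptions were mt-Atp8, mt-Nd4l and mt-Nd5. NC 3 was the highest library for 7 mRNAs and burn 2 for 5, and NC 4 was the lowest for 9.

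Of the 7 mRNAs for complex I (NADH dehydrogenase), which takes electrons from NADH, mt-Nd4l had the largest difference, with higher values in burn that did not pass the test. It had 15.0, 18.4, 27.0, 25.5, 26.1 and 17.6 CPM in burn 1 to 6, and 12.8, 15.4, 15.2 and 12.9 CPM in NC 1 to 4. Burn 3, 4 and 5 were high, and burn 1 lay inside the NC range. The log2 difference was 0.56 (SE 0.18, 95% interval 0.18 to 0.95), with an adjusted p of 0.393 in edgeR. Over the alternatives its log2 difference lay between 0.45 and 0.64 and its adjusted p between 0.136, without burn 1, and 0.861. It was among the rarest rows, with 492 to 975 counts in the burn libraries and 423 to 553 in the NC libraries. Its identical copy Gm10222 had 379 to 621 counts in burn and 343 to 455 in NC, and differed by a log2 value of 0.29 (SE 0.13), with an adjusted p of 0.438 in edgeR. Whether reads were divided between the row and its copy was not tested. Its neighbour mt-Nd4, which overlaps it by 7 bases, had 1508, 1787, 1421, 1506, 1668 and 1697 CPM in burn 1 to 6, and 1853, 1570.0, 2139.6 and 1274 CPM in NC 1 to 4, and those groups overlapped with a log2 difference of -0.16 (edgeR adjusted p 0.738), or -0.041 without NC 3 and -0.34 without NC 4.

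The other complex I mRNAs had smaller log2 differences. The subunit mRNA mt-Nd1 (chrM:2751-3707) had 3051 to 4321 CPM in burn and 2774 to 4252 CPM in NC, and differed by 0.11 (SE 0.16) on the log2 scale. That of mt-Nd2 was 0.091 (SE 0.15) and that of mt-Nd3 -0.10 (SE 0.17). The longest member, mt-Nd5, had 2241 to 2966 CPM in burn and 2119.6 to 2574 CPM in NC, and differed by 0.057 (SE 0.12). With mt-Nd6, described next, their adjusted p-values in edgeR lay between 0.834 for mt-Nd1 and 0.895 for mt-Nd6. Without NC 3 the value of mt-Nd3 was 0.099, and without NC 4 those of mt-Nd1, mt-Nd2 and mt-Nd5 were -0.034, -0.044 and -0.069.

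The single mRNA encoded on the other strand is mt-Nd6 (chrM:13552-14070, minus strand), a complex I subunit whose mRNA is known in human cells to lack a poly(A) tail. It had 233, 229.9, 196, 179, 206 and 190.1 CPM in burn 1 to 6, and 153, 225, 308 and 154 CPM in NC 1 to 4. NC 3 was high and NC 1 and 4 were low, with the burn libraries between them. As a percentage of the other 12 mRNAs it was 0.718 ± 0.0701 in burn (SD, n = 6) and 0.758 ± 0.182 in NC (SD, n = 4), a log2 difference of -0.051 that became 0.076 without NC 3. The log2 difference of its CPM was -0.094 (SE 0.20). Its end overlaps mt-Nd5 by 14 bases on the opposite strand, and the handling of strand in the counting is not given in the sources used here. The library with the most rRNA, NC 1, had the lowest mt-Nd6 percentage, 0.563, and NC 3 had the highest, 0.965.

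Complex III, which passes electrons to cytochrome c, is represented by mt-Cytb (chrM:14145-15288), the gene of cytochrome b. It had 4236 to 5472 CPM in burn and 3641 to 5347 CPM in NC, and differed by a log2 value of 0.038 (SE 0.15) with an adjusted p of 0.947 in edgeR. Burn 2 stood above the other burn libraries.

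Complex IV, cytochrome c oxidase, reduces oxygen, and 3 of its subunits are encoded here. The catalytic subunit mRNA mt-Co1 (chrM:5328-6872) was the most counted mRNA, at 13593, 15235, 13421, 13915, 14436 and 13814 CPM in burn 1 to 6, and 13879, 13409, 15072 and 12130.0 CPM in NC 1 to 4. Over all libraries its highest value was 1.26 times its lowest, the smallest such range of the 16 members, and its log2 difference was -0.0080 (SE 0.14) with an adjusted p of 0.987 in edgeR. The other 2 subunit mRNAs were far rarer. For mt-Co2 the values were 174 to 241 CPM in burn and 165 to 259 CPM in NC, with a log2 difference of -0.16 (SE 0.14), and for mt-Co3 84.9 to 125 CPM in burn and 79.5 to 143 CPM in NC, with a log2 difference of -0.20 (SE 0.18). Both had an adjusted p of 0.704 in edgeR, and both rows lie wholly in the span of the copies. Without NC 3 the values were -0.081 for mt-Co2 and -0.026 for mt-Co3, and without NC 4 they were -0.34 and -0.38. Without burn 2 they were -0.25 and -0.34.

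Complex V, the ATP synthase, has the subunits of mt-Atp8 and mt-Atp6, whose reading frames overlap by 43 bases. The rarest member, mt-Atp8, had 5.51 to 10.1 CPM in burn and 5.64 to 7.17 CPM in NC, with a log2 difference of 0.24 (SE 0.17). For mt-Atp6 the values were 90.4, 122, 91.9, 97.4, 107 and 113 CPM in burn 1 to 6, and 133, 99.7, 178 and 83.2 CPM in NC 1 to 4. NC 3 was high and NC 4 low, and the log2 difference was -0.31 (SE 0.20), or -0.092 without NC 3 and -0.53 without NC 4. Their adjusted p-values in edgeR were 0.610 and 0.554.

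**Figure D3:**
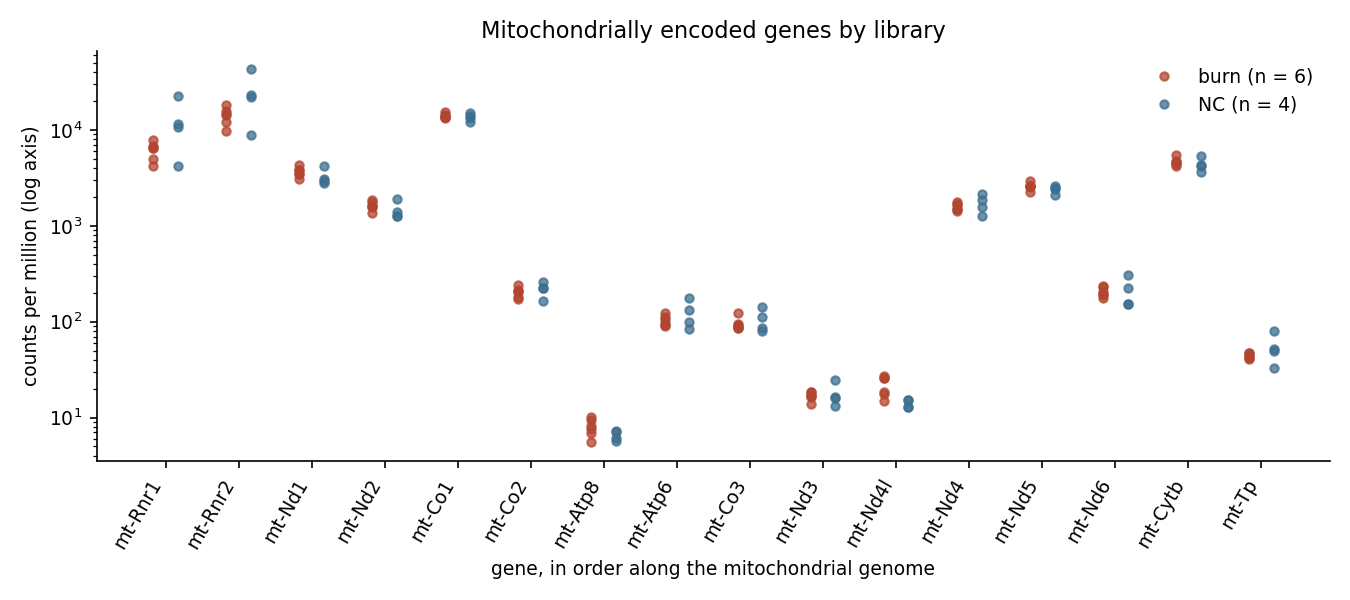
CPM, counts scaled to the library total (log axis), of each of the 16 genes in order along the mitochondrial genome, with 1 point for each library, burn in red to the left of NC in blue. The NC points of mt-Rnr1, mt-Rnr2 and mt-Tp are spread widely, the points of mt-Co1 lie close together at 12130.0 to 15235 CPM, and 3 burn libraries lie above all others for mt-Nd4l.

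The proline tRNA mt-Tp had 41.7, 47.5, 44.5, 41.0, 47.3 and 42.4 CPM in burn 1 to 6, and 80.1, 48.9, 52.4 and 33.0 CPM in NC 1 to 4. As with the rRNAs, NC 1 was the highest library, NC 4 the lowest, and NC 2 and 3 lay above all burn libraries. In counts these were 1337 to 1617 in the burn libraries and 1123 to 2653 in the NC libraries. The log2 difference was -0.34 (SE 0.19), with an adjusted p of 0.513 in edgeR, and without NC 1 it was -0.085. Without NC 4 it was -0.58, with an edgeR adjusted p of 0.0786, the lowest over the alternatives, whose highest was 0.895.

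Levels of different genes are compared per length, in the FPKM values that the authors deposited. In burn, mt-Co1 was the highest with a mean of 9106 ± 432 FPKM, ahead of mt-Rnr2 with 8947 ± 1848 and mt-Rnr1 with 6422 ± 1382 (SD, n = 6). In NC, mt-Rnr2 led with 15324 ± 8871 FPKM, ahead of mt-Rnr1 with 12798 ± 7939.7 and mt-Co1 with 8817 ± 787 (SD, n = 4). The NC libraries spread from 4397 to 23541 FPKM for mt-Rnr1 and from 5568 to 27095 FPKM for mt-Rnr2, so their order against mt-Co1 is within the spread. In burn, mt-Rnr2 was above mt-Co1 in burn 2, 3 and 6, so that order is within the spread too. Next came mt-Cytb, at 4078 ± 371 FPKM in burn and 3821 ± 622 in NC, then mt-Nd1 at 3833 ± 451 in burn and 3412 ± 699 in NC. These neighbours overlapped. The means of mt-Nd2, mt-Nd5 and mt-Nd4 were 1159.6 to 1563 FPKM in burn and 1240.3 to 1410.2 in NC. Every burn library had them in that order, and the lowest burn value of mt-Nd2, 1302, was above the highest of mt-Nd4, 1297.0, while in NC the order varied between libraries. Then followed mt-Tp, mt-Nd6, mt-Co2, mt-Atp6 and mt-Co3, with the same order of means in both groups. In NC 1, however, mt-Nd6 at 295 FPKM was below mt-Co2 at 329. The libraries were made with an mRNA kit, and mt-Tp has only 67 bases. How fully tRNA and rRNA were captured was not tested, so the ranks of mt-Tp and the rRNAs among the mRNAs are uncertain. The lowest were mt-Nd4l, mt-Nd3 and mt-Atp8. Their means were 72.7 ± 17.5, 48.7 ± 5.05 and 38.9 ± 8.18 FPKM in burn (SD, n = 6), and 47.4 ± 4.77, 50.1 ± 13.9 and 31.7 ± 3.63 FPKM in NC (SD, n = 4).

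Per length, the mRNA rows that lie within the span of the chromosome 1 copies were low. The 6 rows had 27.0 to 378 FPKM over all libraries, the 2 rows partly inside had 924 to 9861, and the 5 coding rows outside had 295 (mt-Nd6) to 4783. The copies themselves carried counts in every library. For Gm10925 there were 7211 to 9219 counts in burn and 6128 to 9159 in NC, against 2972 to 4170 in burn and 2833 to 5472 in NC for mt-Atp6. The copy had 1.67 to 2.52 times the counts of the member. For mt-Co3 the copy had 0.754 to 1.02 times, for mt-Nd3 0.618 to 0.913 times, for mt-Nd4l 0.473 to 0.943 times and for mt-Co2 0.414 to 0.572 times the counts of the member. The copies of mt-Nd4 and mt-Co1, which match the row in part, had at most 0.0397 and 0.00614 times the counts. Summed over the 7 copies there were 525 to 683 CPM in burn and 455 to 725 CPM in NC, and edgeR called 0 of 7. The levels of these 8 genes are therefore uncertain.

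**Figure D4:**
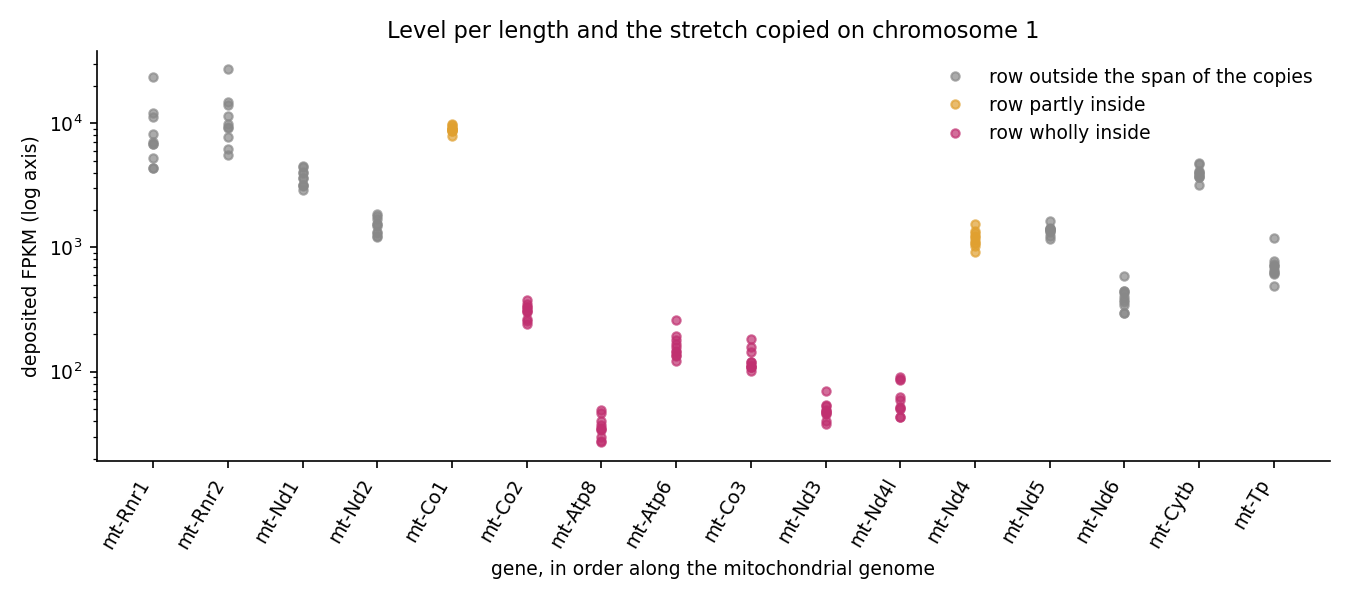
Deposited FPKM (log axis) of the 16 genes in order along the mitochondrial genome, with 1 point for each of the 10 libraries. Colours mark whether the row lies wholly, partly or not at all in the span between the first and the last base matched on chromosome 1, in which mt-Atp8 is placed by position only. The 6 rows wholly in it lie at 27.0 to 378 FPKM, below every point of their neighbours mt-Co1 and mt-Nd4.

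The mRNAs with the largest counts took close shares of the mRNA pool in both groups. Of the counts of the 13 mRNAs, mt-Co1 took 48.8% ± 1.27 in burn and 49.7% ± 1.99 in NC, and mt-Cytb 16.1% ± 0.436 in burn and 15.8% ± 0.531 in NC (SD, n = 6 and 4). The share of mt-Nd1 was 12.7% ± 0.707 in burn and 11.8% ± 0.995 in NC, and that of mt-Nd4 5.53% ± 0.251 in burn and 6.16% ± 0.665 in NC. For mt-Co1 and mt-Cytb the difference was below both SDs. For mt-Nd1 and mt-Nd4 it was above the SD in burn and below the SD in NC. Of the rarer ones, mt-Nd4l took 0.0755% ± 0.0206 in burn and 0.0514% ± 0.00528 in NC, and mt-Co2 0.706% ± 0.0472 in burn and 0.792% ± 0.0674 in NC. All are shares of counts, so a longer gene weighs more.

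Platelet markers and RNAs listed as lacking a poly(A) tail had a library order much like that of the rRNAs. The 10 platelet markers summed to 4203, 5804, 5504, 2848, 5718 and 5542 CPM in burn 1 to 6, and 14402, 7121, 6551 and 3329 CPM in NC 1 to 4. Of these, 9 passed the filter and all 9 had lower values in burn, with a median log2 difference of -0.72 (-0.34 without NC 1 and -1.06 without NC 4), where 45.3% of all genes had lower values. Of the 9, edgeR called 0, and 4 had an unadjusted p under 0.05, against 7% of all genes with lower values. Gp1bb was at 0 in burn 1, 3, 4 and 5 and in every NC library. The list of RNAs taken to lack a poly(A) tail was mostly replication-dependent histone mRNAs. It had 22 of 29 in the table, 9 of them at 0 in some library. They summed to 276, 383, 373, 233, 380.0 and 345 CPM in burn 1 to 6, and 914, 543, 487 and 250 CPM in NC 1 to 4. Of the 12 that passed the filter, 11 had lower values in burn (7 without NC 1), with a median of -0.60 (-0.32 without NC 1 and -0.91 without NC 4). Of the 12, edgeR called 0, and 5 had an unadjusted p under 0.05, against the same 7%. The sums rest mostly on a pair of histone genes, H1f2 and H2bc4, which made up 85.9% to 89.8% of them in burn and 84.3% to 88.0% in NC. On both lists NC 1, 2 and 3 were the highest libraries and burn 2 came next, as for the rRNA share, and burn 1, burn 4 and NC 4 were the lowest 3 on all of them. Whether the counted transcripts of the histone genes carried a tail was not measured. The part of platelet RNA and of RNAs without a tail in the rRNA values was not tested.

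**Figure D5:**
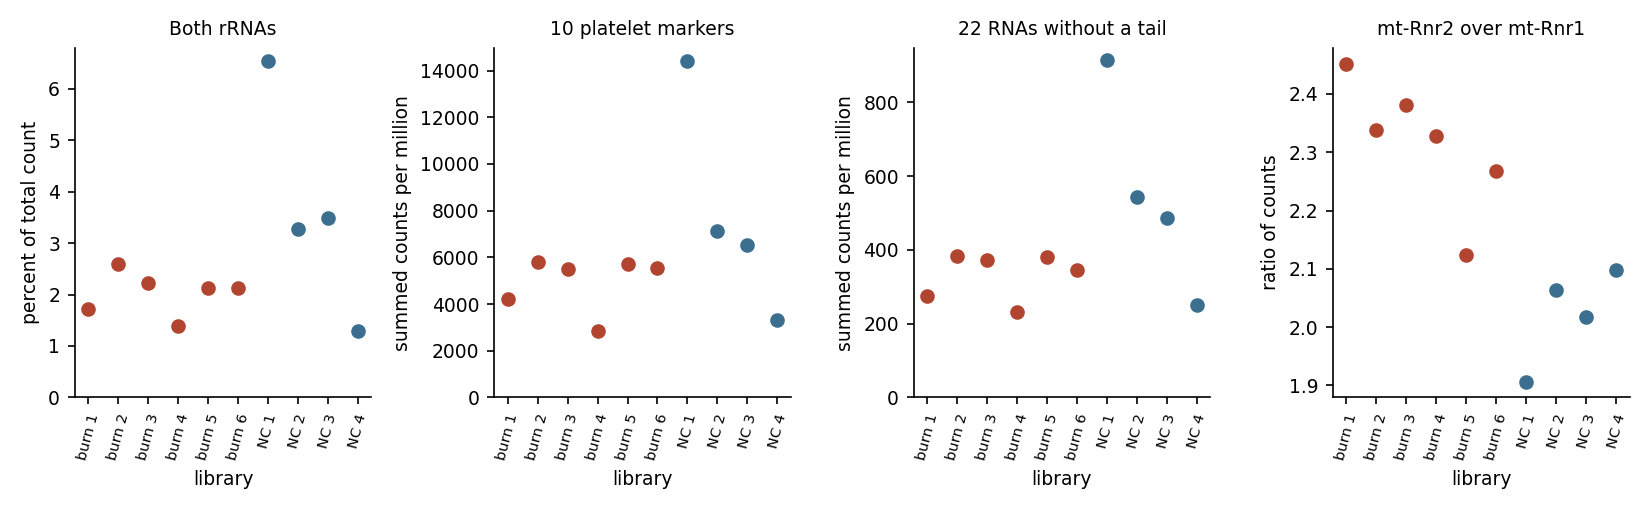
The leftmost panel shows the percent of counts in both rRNAs, and the next the summed CPM of 10 platelet markers. Then come the summed CPM of 22 RNAs listed as lacking a poly(A) tail and the ratio of mt-Rnr2 to mt-Rnr1 counts. Each library has 1 point, burn in red and NC in blue. NC 1 is the highest library in the left 3 panels and the lowest in the last, whose axis does not start at 0, and NC 4 is among the lowest 3 libraries in each of the left 3 panels.

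Neutrophil markers did not share that order, and natural killer cell markers shared it in part. Neutrophil markers, 10 of 10 tested, summed to 1773, 1326, 1635, 2506, 833 and 1113 CPM in burn 1 to 6, and 6051, 596, 926 and 5107 CPM in NC 1 to 4. NC 4, the lowest library for rRNA, was thus second for neutrophil markers. All 10 neutrophil markers had lower values in burn, where 45.3% of all genes did. In edgeR 4 had an unadjusted p under 0.05, against 7% of all genes with lower values, and 0 were called. Their median log2 difference was -1.19. It was -0.71 without NC 1 and -0.33 in limma voom, each with 9 of 10 lower. With the replicate number as a block, which compares the groups in numbers 1 to 4 only, it was -0.36. Natural killer and cytotoxic cell markers summed to 501, 591, 365, 424, 458 and 461 CPM in burn 1 to 6, and 521, 1077, 1151 and 331 CPM in NC 1 to 4. NC 3 and 2 were the highest and NC 4 the lowest, with NC 1 inside the burn range. All 10 had lower values in burn, 8 at an unadjusted p under 0.05 against 7% of all genes, and edgeR called 0. Their median log2 difference was -0.86, with -0.57 without NC 3 and -1.14 without NC 4. All 10 B cell markers had higher values in burn, against 54.7% of all genes, with a median of 0.34. In edgeR 3 had an unadjusted p under 0.05, against 4.25% of all genes, and 0 were called. The B cell markers summed to 2137 to 3308 CPM in burn and 1925 to 2756 CPM in NC. The part of these cell types in the mitochondrial values was not tested. Monocyte markers summed to 2092 to 3227 CPM in burn and 2504 to 2799 CPM in NC, and T cell markers to 1302 to 1784 CPM in burn and 1149.6 to 2037 CPM in NC. Heart muscle, a tissue rich in mitochondria, was looked for with 12 markers, which summed to 42.0 to 229.7 CPM in burn and 29.6 to 92.8 CPM in NC. Of the 11 tested, 9 had higher and 2 lower values in burn, and edgeR called 0. An unadjusted p under 0.05 was reached by 5 with higher and 1 with lower values, against 4.25% and 7% of all genes. The median log2 difference was 1.12 (0.71 without burn 3 and 1.93 without NC 3), and Nppa, an atrial hormone gene, was at -2.99. Myl7 was at 0 in burn 1, 4 and 6 and in every NC library. The part of heart muscle RNA in the mRNA values was not tested.

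The nuclear genes that transcribe, process and translate mitochondrial RNA differed little between the groups, and none passed the test. Over 8 lists with 152 genes, 150 were tested, 109 had higher and 41 lower values in burn, and edgeR called 0. The 109 are 72.7% of those tested, against 54.7% of all genes, and the median log2 difference was 0.059 in the lists and 0.024 over all genes. The count depended most on NC 4, without which 71 of 150 (47.3%) were higher, against 46.4% of all genes. With any other library left out it lay between 83 (55.3%), without burn 2, and 115 (76.7%), without NC 3. Of all genes, 49.2% were higher without burn 2 and 47.5% without NC 3. The count in the lists also depended on the scaling, with 130 (86.7%) higher on library totals alone, against 62.3% of all genes. Where the totals and factors left out mt- and haemoglobin genes, 84 (56%) were higher, against 45.6%. Without adjustment, 7 genes (6 with higher and 1 with lower values) had a p under 0.05, which is 4.67%, against 11.3% of all genes. The groups did not overlap in CPM for 3 of 150 (2%), against 2.32% of all genes.

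By the scaling used here, factors of mitochondrial transcription had 6 higher and 4 lower values of 10. Tfam, which packages the mitochondrial genome and activates its promoters, had 44.0 ± 1.59 CPM in burn and 37.6 ± 3.75 CPM in NC (SD, n = 6 and 4), a log2 difference of 0.17 with an adjusted p of 0.445 in edgeR. The transcription initiation factor Tfb2m had a log2 difference of 0.18 and the termination factor family member Mterf1b one of -0.40. Genes that maintain mitochondrial DNA had 3 higher and 3 lower, with the polymerase Polg at 0.091.

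Genes of mitochondrial RNA processing and decay had 12 higher and 5 lower of 17 tested. Lrpprc, which stabilises mitochondrial mRNAs, had 59.0 ± 2.80 CPM in burn and 51.0 ± 6.27 CPM in NC, and Pde12, which removes poly(A) tails in mitochondria, had 44.1 ± 4.18 CPM in burn and 37.3 ± 5.09 CPM in NC. Their log2 differences were 0.16 and 0.19, with adjusted p-values of 0.436 and 0.435 in edgeR. Prorp, the nuclease that cuts the 5′ ends of mitochondrial tRNAs, had a log2 difference of 0.26.

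Genes of rRNA modification and ribosome assembly had 9 higher and 4 lower of 13. Mettl15, which methylates the small subunit rRNA, had 3.61 ± 0.357 CPM in burn and 2.60 ± 0.411 CPM in NC (SD, n = 6 and 4), and its groups did not overlap. The log2 difference was 0.42 with an adjusted p of 0.409 in edgeR. The assembly helicase Dhx30 had a log2 difference of 0.14.

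Genes for proteins of the mitochondrial ribosome had higher values for 38 of 48 in the large and 19 of 28 in the small subunit. The large subunit genes summed to 893 to 952 CPM in burn and 721 to 1014 CPM in NC, with NC 1 lowest and NC 3 highest. NC 1 thus had the highest rRNA share and the lowest summed level of these genes. NC 3 went the other way, with the highest sum and an rRNA share of 3.48%, above every burn library. In the small subunit, Mrps22 had 9.42 ± 0.455 CPM in burn and 7.64 ± 0.602 CPM in NC (SD, n = 6 and 4), and Mrps9 had 39.5 ± 1.46 CPM in burn and 33.7 ± 3.04 CPM in NC. The groups did not overlap for either gene, and their edgeR adjusted p-values were 0.395 and 0.432. In the large subunit, Mrpl33 went the other way, with 14.5 ± 1.32 CPM in burn and 18.4 ± 5.11 CPM in NC and a log2 difference of -0.39.

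Mitochondrial tRNA synthetases, which charge the tRNAs with amino acids, had 13 higher and 4 lower of 17, with the tryptophan enzyme Wars2 at a log2 difference of 0.27 and the valine enzyme Vars2 at 0.17. Translation factors had 9 higher and 2 lower of 11, with Oxa1l, which inserts new proteins into the inner membrane, at 0.16 and the ribosome recycling factor Mrrf at -0.24. None of them passed the test.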

How the data were processed

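RNA of 10 samples of mouse blood was sequenced. Per the labels' protocols, TRIzol was used to extract total RNA, and an mRNA kit to make paired-end libraries. The authors deposited a table of 30984 genes that gives each library a read count and an FPKM value, per the file headers. The deposited FPKM values equalled counts over the column total and a whole-number length, with a largest relative gap of 2.93e-13, and for 16 of 16 members that length was the annotated gene length. Per the submitters' processing notes, mm10 was the genome build. Which aligner and counting program were used, and how strand and reads that fit several genes were treated, is not given in the sources used here.

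Positions and sequences came from GENCODE M21 on GRCm38 (mm10), matched by identifier for 30367 genes. Members were aligned with blastn to its nuclear transcripts, in the sense direction only and without covering every chromosome. Copies on chromosome 1 were taken as matches of at least 200 bases with at least 99% identity. Rows were placed by the span between the first and the last base so matched.

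Counts were tested with edgeR 4.0.16 in R 4.3.3. The filter filterByExpr, at a minimum count of 10, left 17268 genes. With TMM scaling and no covariate, burn was set against NC on all 10 libraries in the quasi-likelihood F test. P-values were adjusted by Benjamini-Hochberg over the 17268 genes, and 0.05 was the threshold. Levels are CPM of the library total. Shares and ratios of summed members were described with no test. Libraries of a group were compared by chi-square, which was at least 14.2 per degree of freedom within burn and 69.3 within NC.

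All members were named. Of each nuclear list, up to 3 genes with the smallest unadjusted p could be named. The members and lists were chosen with earlier results of these data known. Alternatives covered scaling, filters, DESeq2 1.42.0, limma 3.58.1, the replicate number as a block and each library left out. The ratio of mt-Rnr2 to mt-Rnr1, and the sums without genes that share sequence with nuclear copies, were added after seeing the data.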

Additional observations from a re-analysis of the deposited data

Results flagged for a closer look

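Of 42 groups of libraries examined for a library far from the others, 2 had one, where chance gives about 1 in 20. Burn 2 had 124.6 CPM of mt-Co3, with the other burn libraries at 84.9 to 94.4 CPM. Burn 2 also had 5472 CPM of mt-Cytb, with the other burn libraries at 4236 to 4692 CPM. Without burn 2 the log2 difference of mt-Cytb was -0.055. Burn 2 had the highest mRNA share of all libraries, 3.24%.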

How the results depend on the processing

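No alternative changed the call of any of the 16 genes: edgeR, DESeq2 and limma called 0 of them in all 22 alternatives, among them those with each library left out. Over all genes the number called was 85 in DESeq2, 4 in limma voom, 1 in limma on log2(FPKM + 1), 10 without burn 1 and 3 without NC 4. The differences in share kept their sign in all alternatives run for rRNA (16) and mRNA (17). For mt-Tp the log2 ratio of shares was -0.42 to 0.0038 with a library left out, and for mt-Nd6 over the other mRNAs -0.18 to 0.076. The ratio of rRNA to mRNA kept its sign in 14 of 14. That of mt-Rnr2 to mt-Rnr1 kept it in 12 of 12, which could not be otherwise, because its groups did not overlap. Single genes near 0 changed sign, and the cause was not tested. The log2 difference of mt-Co1 was 0.046 with library totals alone, 0.050 in limma on log2(FPKM + 1) and with the pseudocount 0.1, and 0.020 in voom. That of mt-Nd6 was 0.024 in limma with either pseudocount. That of mt-Cytb was -0.0085 with totals that leave out mt- and haemoglobin genes and -0.0050 with no filter. With each library left out, the log2 difference ran from -0.034 to 0.25 for mt-Nd1, -0.044 to 0.24 for mt-Nd2, -0.13 to 0.032 for mt-Co1, -0.22 to 0.099 for mt-Nd3, -0.069 to 0.092 for mt-Nd5, -0.29 to 0.14 for mt-Nd6 and -0.11 to 0.14 for mt-Cytb.

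The replicate numbers showed no clear pairing of the samples, though so few libraries cannot settle whether they were paired. The correlation of the deviations of same-numbered libraries was -0.047, -0.038, -0.074 and 0.34 for numbers 1 to 4, and only NC 4 correlated best with the burn library of its own number. With the replicate number as a block, edgeR called 0 members, and genes at an unadjusted p under 0.05 numbered 954 against 1943. Burn 5 and 6 have no NC library of their number, so this block sets the groups against each other in numbers 1 to 4 only. With this block the log2 difference was -0.70 for the rRNA share, 0.071 for the mRNA share, -0.23 for mt-Tp, -0.77 for the ratio of rRNA to mRNA, -0.023 for mt-Nd6 over the other mRNAs, 0.23 for mt-Rnr2 over mt-Rnr1, 0.0091 for mt-Co1 and 0.013 for mt-Nd6 as single genes.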
